A study of Mus musculus with 39 samples.

Results

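The liver X receptors (LXRs) and the genes of cholesterol efflux were followed through 10 genes chosen by symbol: Nr1h3, Nr1h2, Rxra, Abca1, Abcg1, Arl4c, Lpcat3, Pltp, Apoc1 and Apoc2. Each symbol matched 1 of the 43430 genes in the count table, and all 10 passed the filter on low counts. Gene expression was measured by polyA-selected RNA sequencing in 39 libraries from the lungs of C57BL/6J mice. Monocytes came from naive mice, and Siglec F-low, monocyte-derived alveolar macrophages came from mice injured with bleomycin, an antitumour drug that scars the lung. Mice of both kinds were young or old and were given saline or ISRIB, a compound that restores translation during the integrated stress response. The 8 groups had 5 libraries each, except young ISRIB macrophages with 4.

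Ages were 8 to 12 weeks and over 18 months in the sample labels but 3 to 5 and 18 to 24 months in the series text, and only the names young and old are used. ISRIB or vehicle was given daily from day 7 after bleomycin and cells were collected on day 21, with no timing stated for naive mice. Every macrophage group had bleomycin and no monocyte group had it, so cell type and injury cannot be told apart. Nothing in the labels says that libraries of a group came from separate animals, so p-values measure the spread between these libraries, which may be technical. In sorted cells measured in bulk, fewer cells of a type and less RNA per cell cannot be told apart either.

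LXRs are nuclear receptors that bind oxysterols, oxidised forms of cholesterol, and sit on DNA as pairs with the retinoid X receptors. Without ligand they hold target genes down with corepressors, and with ligand they raise genes that export cholesterol, remodel phospholipids and supply lipoproteins. Alveolar macrophages take up the lipid-rich surfactant of the lung and are known to depend on these exporters to clear cholesterol.

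The labelled cell types were checked first. Siglecf, a lectin of mature alveolar macrophages, averaged 51.4 ± 4.49 CPM (counts of a gene per 1000000 counts of its library, mean ± SD, n = 5) in young saline macrophages and at most 0.823 CPM in any monocyte group. Ly6c2, a classical monocyte marker, averaged 561 CPM in young saline monocytes and 0.968 CPM in young saline macrophages. The monocyte libraries held both kinds of monocyte markers: the CPM of 5 classical markers summed to 3530 to 9785, and that of the nonclassical markers to 2366 to 7269. The smallest library held 4595331 counts, the median one 8628240 and the largest 16056708.

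LXR pairs with RXR bind 2 copies of a hexamer on the same strand 4 bases apart, a layout called DR4. The motif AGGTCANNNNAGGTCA was searched on both strands in the 250 bases before the start of each gene, with up to 3 mismatches over the 12 fixed bases. The sequences were RefSeq promoters of assembly GRCm38.p6, which hold 8 of the 10 genes. A match was present for 3 of them, Abca1, Rxra and Arl4c, and in 6081 of 32851 promoters in all (18.5%). The promoters with a match are printed 5′ to 3′ on the strand of the gene, with the matched bases in capitals. In Abca1 the match lies on the opposite strand, 67 to 52 bases before the start. In Rxra, where it belongs to the second of 2 promoters, it lies on the gene's strand, 58 to 43 bases before. Arl4c has 2 overlapping matches on the opposite strand between 75 and 50 bases before its start, and the last 30 bases of its window are not shown because they lie in an annotated exon.
Abca1, chr4:53159896-53160145, minus strand: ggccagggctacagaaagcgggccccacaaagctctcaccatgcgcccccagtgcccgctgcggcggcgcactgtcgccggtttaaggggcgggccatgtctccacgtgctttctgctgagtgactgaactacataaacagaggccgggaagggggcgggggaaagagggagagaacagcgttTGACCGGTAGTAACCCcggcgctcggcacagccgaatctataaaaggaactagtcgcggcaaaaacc
Rxra, chr2:27709042-27709291, plus strand: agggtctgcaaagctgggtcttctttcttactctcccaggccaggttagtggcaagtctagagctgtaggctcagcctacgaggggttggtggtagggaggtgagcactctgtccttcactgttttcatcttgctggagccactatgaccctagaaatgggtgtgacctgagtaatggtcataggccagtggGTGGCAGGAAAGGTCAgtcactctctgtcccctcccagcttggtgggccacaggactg
Arl4c, chr1:88702222-88702441, minus strand: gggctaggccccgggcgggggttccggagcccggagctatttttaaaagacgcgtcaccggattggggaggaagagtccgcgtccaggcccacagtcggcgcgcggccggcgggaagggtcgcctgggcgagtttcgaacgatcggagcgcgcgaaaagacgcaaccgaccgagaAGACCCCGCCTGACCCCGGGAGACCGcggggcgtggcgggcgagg
Among the other 5 genes with a promoter in the table, the best stretch had 4 mismatches in 4 genes and 5 in 1.

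Macrophages and monocytes differed in most of these genes, and the differences ran both ways. Nr1h3, Rxra, the pumps Abca1 and Abcg1, and the phospholipid genes Lpcat3 and Pltp were higher in macrophages in all 4 pairs of groups matched for age and treatment. Nr1h2, Arl4c and Apoc2 were lower in all 4, and Apoc1 was called lower in saline mice and not in ISRIB mice. In edgeR's quasi-likelihood test, 10 of 10 genes were called in young saline mice, against 60.0% of all genes tested. In old saline mice 10 were called (57.0% of all genes), in young ISRIB mice 9 (57.3%) and in old ISRIB mice 9 (59.4%). A gene is called here when its Benjamini-Hochberg adjusted p over all genes of the fit is under 0.05. Most genes tested were called, so a call alone does not set these genes apart.

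**Figure D1:**
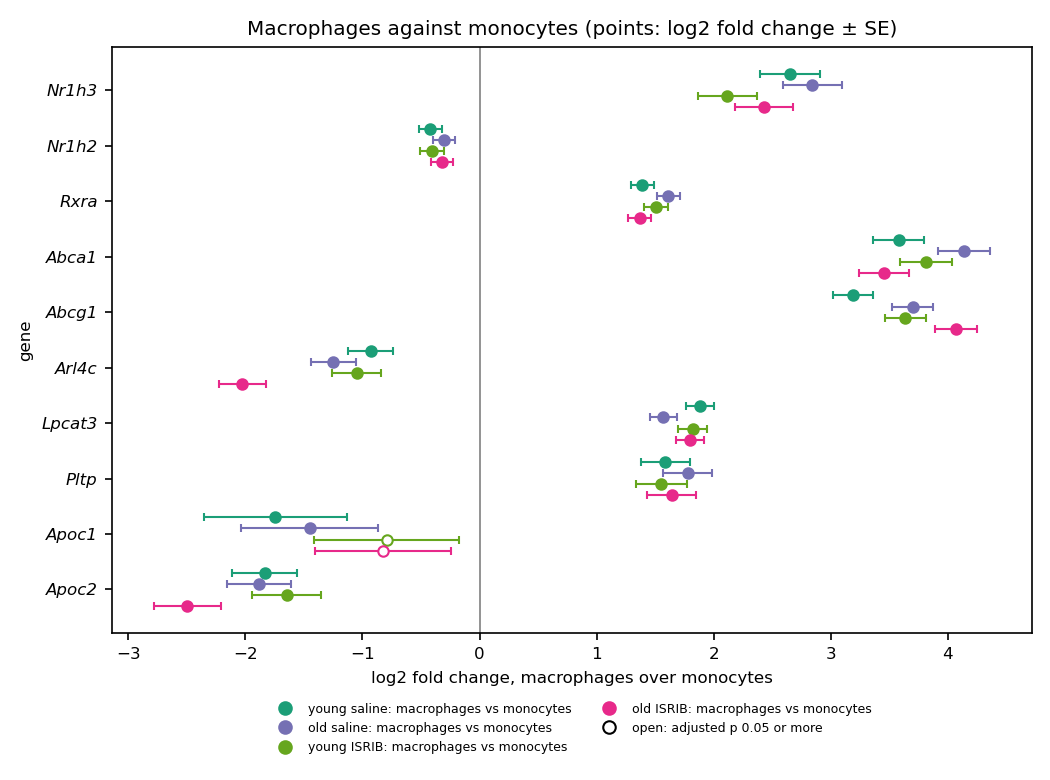
Log2 fold change of macrophages over monocytes (x axis) for each of the 10 genes (y axis), with 1 point and standard error for each pair of groups matched for age and treatment; filled points have an adjusted p under 0.05. Abca1 and Abcg1 lie farthest to the right, between 3.19 and 4.14, and the Apoc1 points of ISRIB mice are open.

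The median log2 fold change of the 10 genes was 1.49 in young saline, 1.59 in old saline, 1.53 in young ISRIB and 1.51 in old ISRIB mice, where the median of all genes tested was 0.01, 0.00, -0.01 and 0.01. The libraries of the 2 cell types did not overlap in CPM for 9 genes in young saline, old saline and young ISRIB mice (43.7%, 47.5% and 50.4% of all genes) and for 8 in old ISRIB mice (50.9%). Apoc1 overlapped in young saline mice and in both ISRIB pairs, and Nr1h2 in both old pairs.

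Nr1h3 encodes LXR alpha, the LXR of macrophages, liver and fat, and lies on chromosome 2 from 91184061 to 91202834 (GRCm38, minus strand). In monocytes it had 4.90, 13.4, 11.001, 7.40 and 3.75 CPM in young saline, 10.9, 9.24, 13.5, 14.6 and 9.20 in young ISRIB, 17.4, 5.30, 6.77, 8.42 and 7.72 in old saline and 8.61, 16.7, 13.3, 10.4 and 7.79 in old ISRIB libraries. In macrophages it had 56.0, 38.9, 52.0, 43.1 and 59.0 CPM in young saline, 49.6, 41.1, 45.5 and 50.3 in young ISRIB, 55.0, 52.2, 64.3, 75.2 and 48.5 in old saline and 53.3, 64.9, 56.4, 56.2 and 66.8 in old ISRIB libraries. Every macrophage library lay above every monocyte library. The log2 fold change was 2.65 ± 0.25 (SE) in young saline mice, 6.30-fold, with an adjusted p of 1.07e-11, and 2.84 in old saline, 2.12 in young ISRIB and 2.43 in old ISRIB mice.

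Nr1h2 encodes LXR beta, the LXR found in nearly all cells, and lies on chromosome 7 from 44549616 to 44553951 (minus strand). It moved the other way, and by little. Monocyte means were 115 ± 11.5 (young saline), 111 ± 13.4 (young ISRIB), 110.3 ± 9.52 (old saline) and 113 ± 19.2 CPM (old ISRIB, SD, n = 5 each). Macrophage means were 83.6 ± 3.89, 78.4 ± 7.62 (n = 4), 81.6 ± 13.7 and 87.4 ± 3.99 CPM in the same order. In young saline mice the 5 macrophage libraries, at 84.5, 83.1, 77.4, 88.0 and 85.0 CPM, all lay below the monocytes, at 97.1, 122, 115, 128 and 115, and the log2 fold change was -0.42 ± 0.10 (adjusted p = 2.78e-04). In old saline mice, where 1 macrophage library reached 104 CPM, it was -0.30 (adjusted p = 0.00719). Under ISRIB it was -0.41 in young and -0.32 in old mice.

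The balance of the LXR pair therefore differed between the cell types. Levels of different genes were compared per kilobase of exon. The ratio of Nr1h3 to Nr1h2 per length was 0.0433 to 0.194 over the 20 monocyte libraries, with a median of 0.122, and 0.624 to 1.27 over the 19 macrophage libraries, with a median of 0.862. Group means in macrophages were 0.797 ± 0.145 (young saline), 0.798 ± 0.101 (young ISRIB), 0.978 ± 0.195 (old saline) and 0.909 ± 0.0979 (old ISRIB). With the longest transcript as the length, the ranges were 0.0327 to 0.146 and 0.471 to 0.961.

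**Figure D2:**
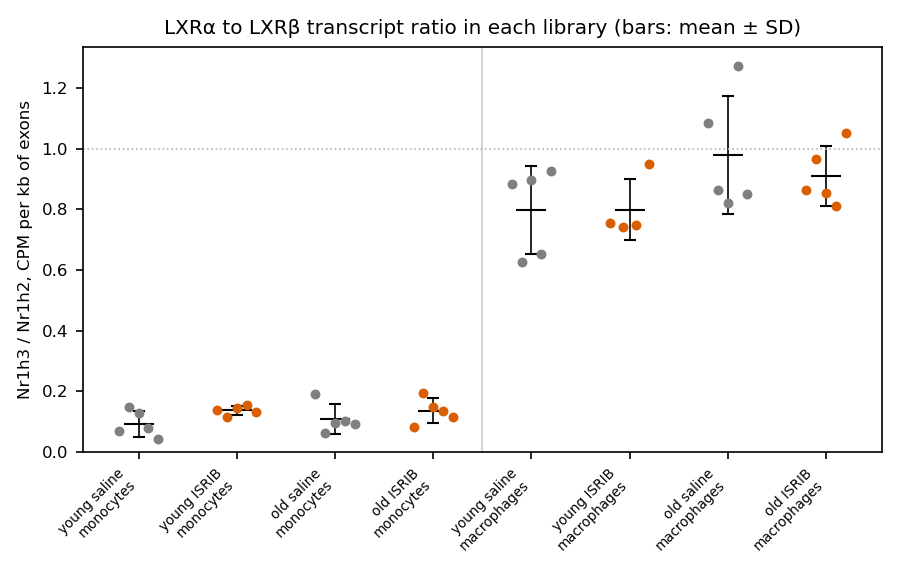
Ratio of Nr1h3 to Nr1h2 in CPM per kilobase of exon (y axis) in each library of the 8 groups (x axis), with bars for the mean ± SD. Monocyte libraries lie between 0.0433 and 0.194, and macrophage libraries between 0.624 and 1.27.

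Rxra, the retinoid X receptor that pairs with LXRs, lies on chromosome 2 from 27676440 to 27762957 (plus strand). It was at 154, 129, 145, 126 and 149 CPM in young saline monocytes and 318, 331, 364, 345 and 442 CPM in young saline macrophages. All macrophage libraries of the study (298 to 442 CPM) were above all monocyte libraries (109 to 154 CPM). Its log2 fold change was 1.39 ± 0.10 in young saline, 1.61 in old saline, 1.51 in young ISRIB and 1.37 in old ISRIB mice, and it was called higher in each pair.

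Abca1 pumps cholesterol and phospholipid onto lipid-poor apolipoproteins and is the classic LXR target (chromosome 4, 53030787 to 53159895, minus strand). Monocytes had 27.7, 43.8, 21.9, 17.6 and 42.5 CPM in young saline, 34.4, 20.9, 31.01, 36.3 and 25.4 in young ISRIB, 17.3, 32.3, 22.4, 23.2 and 31.9 in old saline and 26.6, 30.8, 32.2, 38.4 and 36.6 in old ISRIB libraries. Macrophages had 332, 412, 330.2, 311 and 423 CPM in young saline, 437, 432, 313 and 373 in young ISRIB, 428, 387, 317, 408 and 496 in old saline and 433, 299.8, 236, 403 and 367 in old ISRIB libraries. The ranges were far apart: the lowest macrophage library, 236 CPM, stood well above the highest monocyte library, 43.8 CPM. The log2 fold change was 3.58 ± 0.22 in young saline mice (12.0-fold) and 4.14 ± 0.22 in old saline mice (17.6-fold), with 3.82 in young and 3.46 in old ISRIB mice.

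Abcg1 passes cholesterol on to mature high-density lipoprotein particles, and its loss is known to load alveolar macrophages with lipid (chromosome 17, 31057675 to 31117988, plus strand). Young saline monocytes had 109, 139, 122, 69.2 and 121 CPM, young ISRIB 118, 112, 112, 116 and 77.8, old saline 100.02, 91.6, 117, 87.8 and 109, and old ISRIB 105, 109, 88.1, 95.3 and 75.5. Young saline macrophages had 1006, 869, 1085, 858 and 1179 CPM, young ISRIB 1608, 1213, 1066 and 1079.6, old saline 992, 891, 1683, 931 and 1501, and old ISRIB 1393, 1692, 1749, 1269 and 1562. No library of one cell type came near the other. Macrophages were 9.11-fold higher in young saline mice (log2 3.19 ± 0.17), 12.99-fold in old saline mice (3.70 ± 0.17) and 16.8-fold in old ISRIB mice (4.07 ± 0.18), with a log2 fold change of 3.64 in young ISRIB mice. The age effect in saline mice, macrophages minus monocytes, was 0.51 ± 0.22 for Abcg1, which edgeR did not call (unadjusted p = 0.0272, adjusted p = 0.381). None of the 10 genes was called there, against 0.250% of all genes tested, with 1 at an unadjusted p under 0.05 (10.9% of all genes) and 0 called by DESeq2 or limma voom.

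Arl4c, a small GTPase that moves vesicles and cholesterol towards the cell surface and is an LXR target, went the opposite way to the pumps (chromosome 1, 88673125 to 88702221, minus strand). Monocytes had 288, 269, 249.9, 252 and 135 CPM in young saline, 220.4, 169, 339.8, 224 and 218 in young ISRIB, 295, 159, 323, 203 and 306 in old saline and 205, 256, 299.99, 359 and 382 in old ISRIB libraries. Macrophages had 128, 132, 134, 106 and 114 CPM in young saline, 97.0, 111, 104 and 110.1 in young ISRIB, 94.9, 105, 106, 94.0 and 91.7 in old saline and 101, 72.5, 59.5, 66.04 and 58.0 in old ISRIB libraries. In each matched pair the macrophages lay below the monocytes without overlap. The difference was 1.91-fold in young saline mice (log2 -0.93 ± 0.19, adjusted p = 7.87e-05) and 4.08-fold in old ISRIB mice (log2 -2.03 ± 0.20), with log2 fold changes of -1.25 in old saline and -1.05 in young ISRIB mice.

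**Figure D3:**
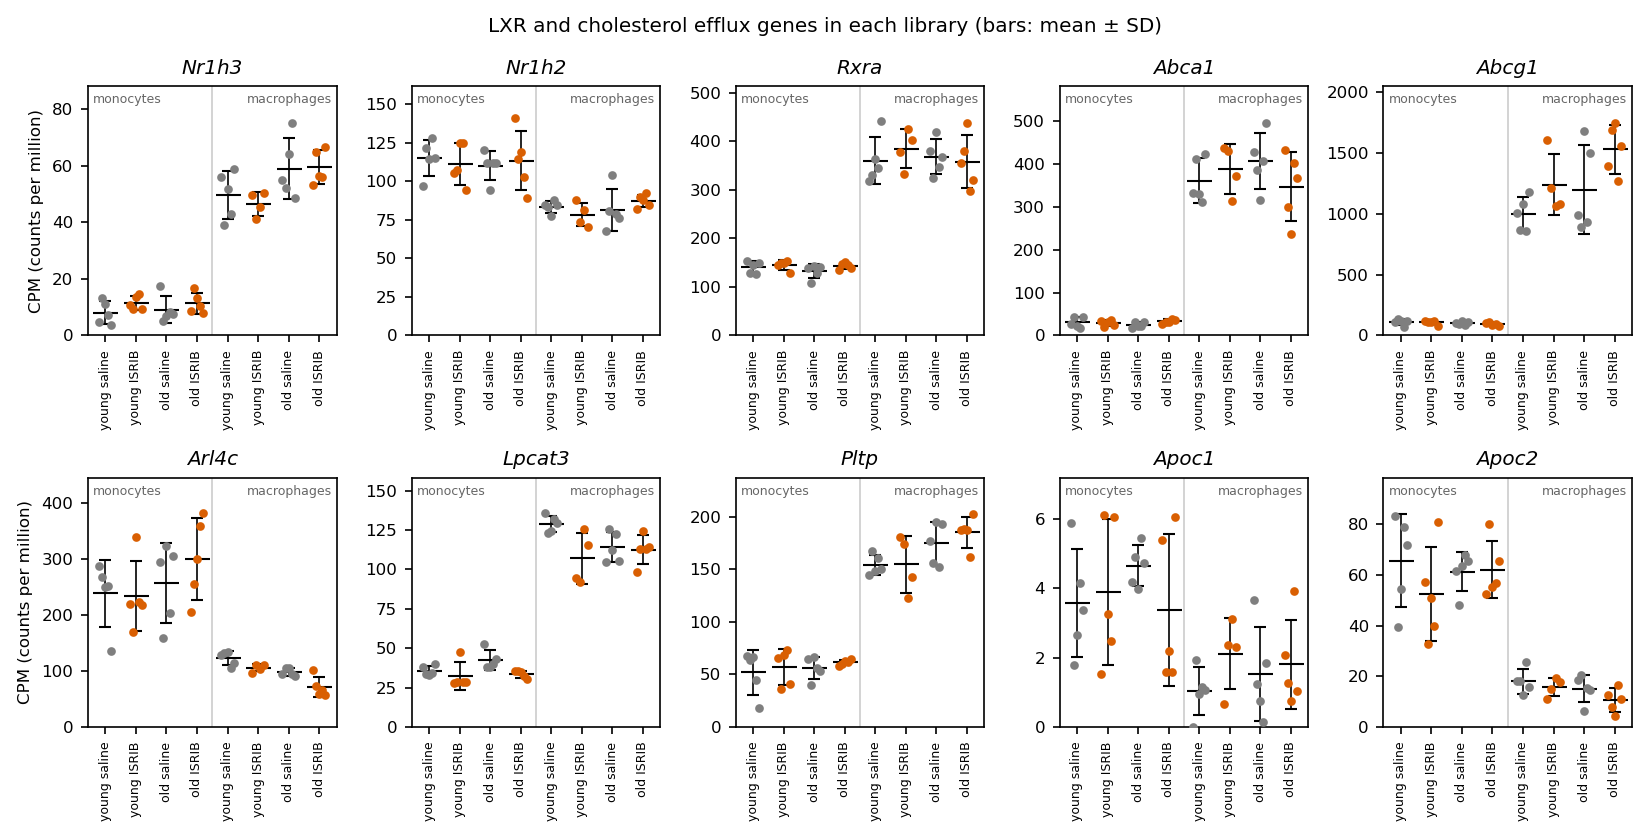
CPM of each of the 10 genes (y axis, 1 panel a gene) in every library of the 8 groups (x axis, monocytes left and macrophages right), grey for saline and orange for ISRIB, with bars for the mean ± SD. Abca1 and Abcg1 stand apart between the cell types, Arl4c falls to between 58.0 and 101 CPM in old ISRIB macrophages, and Apoc1 stays at or below 6.11 CPM throughout.

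Lpcat3 attaches polyunsaturated fatty acids to membrane phospholipids (chromosome 6, 124663027 to 124704418, plus strand). Group means were 35.7 ± 2.92, 32.3 ± 8.70, 42.3 ± 6.23 and 33.5 ± 2.17 CPM in young saline, young ISRIB, old saline and old ISRIB monocytes and 129 ± 5.19, 107 ± 16.2, 114 ± 9.58 and 113 ± 9.18 CPM in the macrophages. The libraries ran from 27.8 to 52.8 CPM in monocytes and from 92.2 to 136 CPM in macrophages, so they did not overlap. The log2 fold change was 1.89 ± 0.12 in young saline mice (3.69-fold), 1.57 in old saline, 1.82 in young ISRIB and 1.80 in old ISRIB mice.

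Pltp moves phospholipid between lipoproteins (chromosome 2, 164839518 to 164857711, minus strand). Its means were 52.1 ± 21.3, 56.6 ± 17.1, 55.9 ± 10.6 and 61.4 ± 2.43 CPM in the monocyte groups and 154 ± 9.45, 155 ± 27.2, 175 ± 20.1 and 185 ± 14.9 CPM in the macrophage groups, in the same order. The ranges, 17.9 to 73.2 and 122 to 203 CPM, did not overlap, and the log2 fold change was 1.58 ± 0.21 in young saline mice (3.00-fold, adjusted p = 2.43e-08), 1.78 in old saline, 1.55 in young ISRIB and 1.64 in old ISRIB mice. The Pltp and Lpcat3 exons overlap those of Ctsa and Emg1 on the opposite strand, over 495 bases (19.3%) and 334 bases (10.2%). Whether the counting used strand is not given in the sources used here, so reads in those stretches cannot be assigned. Ctsa, a lysosomal protease, had 1140 to 1369 CPM in macrophages and 676 to 996 in monocytes, and its part in the Pltp difference was not tested. Emg1 had 22.5 to 45.9 and 30.7 to 65.7 CPM.

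Apoc2 and Apoc1 are small apolipoproteins of one gene cluster that LXRs are known to control: Apoc2 activates lipoprotein lipase, and Apoc1 restrains lipid transfer and uptake. Apoc2 (chromosome 7, 19671579 to 19677941, minus strand) had 83.1, 39.4, 54.3, 79.0 and 71.9 CPM in young saline monocytes and 18.0, 18.0, 12.4, 25.7 and 15.9 CPM in young saline macrophages. Of its exon bases, 79.5% are shared with Gm44805, a protein-coding gene on the same strand that has no row in the count table, and reads there cannot be told apart by position. Over the study the monocytes ran from 32.8 to 83.1 CPM and the macrophages from 4.37 to 25.7 CPM, without overlap. Macrophages were 3.57-fold lower in young saline mice (log2 -1.84 ± 0.27, adjusted p = 3.08e-07) and 5.64-fold lower in old ISRIB mice (-2.49 ± 0.29), with log2 fold changes of -1.89 in old saline and -1.65 in young ISRIB mice.

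Apoc1 (chromosome 7, 19689481 to 19692660, minus strand) was scarce everywhere. It had 5.89, 1.77, 2.66, 4.13 and 3.37 CPM in young saline monocytes and 0, 1.94, 0.956, 1.16 and 1.06 CPM in young saline macrophages. The library at 0 had no count of 6069978, which allows up to 0.494 CPM at 3 counts, for counting error only. The log2 fold change was -1.74 ± 0.61 in young saline mice (adjusted p = 0.0130) and -1.45 ± 0.58 in old saline mice (0.0322). In ISRIB mice it was -0.79 in young (0.280) and -0.82 in old mice (0.227). The call was lost in young saline mice without the first monocyte library (adjusted p = 0.0528), and in old saline mice without the fourth monocyte library (0.0585) or without the second (0.0625), the third (0.0827) or the fourth macrophage library (0.0867).

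Ranked per length, the genes stood in a different order in the 2 cell types. In young saline monocytes the highest was Apoc2 at a mean of 80.6 CPM per kilobase, followed by Arl4c (43.5), Nr1h2 (34.4), Rxra (25.7), Pltp (20.3), Abcg1 (15.4), Lpcat3 (10.9), Apoc1 (4.79), Nr1h3 (3.22) and Abca1 (2.96). In young saline macrophages Abcg1 led at 137 CPM per kilobase, before Rxra (65.9), Pltp (60.2), Lpcat3 (39.5), Abca1 (34.9), Nr1h2 (24.9), Arl4c (22.4), Apoc2 (22.1), Nr1h3 (19.8) and Apoc1 (1.37). Abca1 had the lowest mean of the 10 in young saline monocytes. Its libraries (1.70 to 4.23) overlapped those of Nr1h3 (1.49 to 5.33) and Apoc1 (2.38 to 7.91). Higher ranks overlapped there too. Arl4c (24.6 to 52.5) overlapped Apoc2, Nr1h2, Rxra and Pltp. Pltp (6.97 to 26.2) also overlapped Rxra, Abcg1, Lpcat3 and Apoc1, and Abcg1 overlapped Lpcat3. The order of genes with overlapping ranges is not resolved in these monocytes. Abcg1 had the highest mean in all 4 macrophage groups and reached 210.1 CPM per kilobase in old ISRIB mice. In young saline macrophages the library ranges overlapped between Rxra and Pltp, between Lpcat3 and Abca1, and among Nr1h2, Arl4c, Apoc2 and Nr1h3, and Apoc2 (15.3 to 31.6) also reached into the range of Abca1 (30.1 to 40.8). The order within these sets is not resolved. With the longest transcript as the length, Nr1h2 was at 57.7 CPM per kilobase in young saline monocytes and 41.8 in young saline macrophages, and Abcg1 at 19.2 and 171. By that length Abca1 was at 35.3 in young saline macrophages, below Nr1h2, so the order of Abca1 and Nr1h2 there depends on the length used.

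Other LXR target genes were mostly higher in macrophages too. In young saline mice, 7 of the 10 tested were called higher and 2 lower, against 60.0% of all genes called in either direction, with a median log2 fold change of 1.54. Mertk, a receptor for dying cells, was 7.16 ± 0.30 higher, Lpl, lipoprotein lipase, 5.04 ± 0.37, Scd1, a fatty acid desaturase, 3.04 ± 0.34 and Apoe, the main lipoprotein acceptor made by macrophages, 2.69 ± 0.23 on the log2 scale. Srebf1, a regulator of fatty acid synthesis, was at 0.66 and was called higher. Mylip, which degrades lipoprotein receptors, was not called (0.36, adjusted p = 0.153). Of the 7 partners and coregulators tested, 2 passed as higher and 4 as lower (median -0.32): Pparg, a lipid-sensing nuclear receptor, was at 4.05 and Nrip1 at 1.29, and the corepressor Ncor1 at -1.17 and the coactivator Ncoa1 at -0.98. Of 13 genes of sterol uptake, storage and oxysterols, 6 passed as higher and 4 as lower (median 0.26). The shares of partners and sterol genes called are read against the same 60.0%. Nceh1, which frees cholesterol from its esters, was at 3.14, the lysosomal lipase Lipa at 2.52 and Cyp27a1, which makes an oxysterol ligand of LXRs, at -2.89. Ch25h, the enzyme that makes 25-hydroxycholesterol, had 13.3 to 24.6 CPM in young saline macrophages and 0 to 0.749 CPM in the monocytes. In old saline, young ISRIB and old ISRIB mice the targets gave the same counts of 7 higher and 2 lower.

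Within macrophages, age moved few of these genes, and Arl4c was the one that edgeR called. In saline mice none of the 10 was called, against 1.16% of all genes tested, and DESeq2 and limma voom called 0. An unadjusted p under 0.05 was reached by 4 (12.7% of all genes): Nr1h3 was at 0.29 ± 0.13, Pltp at 0.22 ± 0.10, Abcg1 at 0.30 ± 0.15 and Arl4c at -0.28 ± 0.12 (log2, old over young). In ISRIB mice Arl4c was called (0.937% of all genes): old libraries, at 101, 72.5, 59.5, 66.04 and 58.0 CPM, were lower than young ones, at 97.0, 111, 104 and 110.1, with 1 old library inside the young range. Its log2 fold change was -0.57 ± 0.12 (adjusted p = 0.0190), a call lost in the fit over all 39 libraries (adjusted p = 0.274). It was also lost without young ISRIB library 2 (0.0602), 3 (0.0527) or 4 (0.0774) and without old ISRIB library 3 (0.0648) or 5 (0.0631).

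Averaged over saline and ISRIB, Arl4c fell by 0.42 ± 0.08 on the log2 scale in old macrophages (adjusted p = 0.00303, edgeR), the 1 gene of the 10 called, against 4.86% of all genes. The call held in each fit that left out 1 of the 19 libraries, with a highest adjusted p of 0.00911, and was lost in the fit over all 39 libraries (0.104). Nr1h3 (0.32 ± 0.09, adjusted p = 0.0501), Pltp (0.23 ± 0.07, 0.0632) and Abcg1 (0.30 ± 0.11, 0.1105) did not pass, although Nr1h3 lay at the threshold and passed with DESeq2 (0.0288), as did Pltp (0.0374). For Nr1h3 in ISRIB mice, every old library (53.3 to 66.8 CPM) was above every young one (41.1 to 50.3 CPM), the 1 gene of the 10 whose groups did not overlap there, against 4.97% of all genes, and its log2 fold change was 0.35 ± 0.14 (adjusted p = 0.272).

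**Figure D4:**
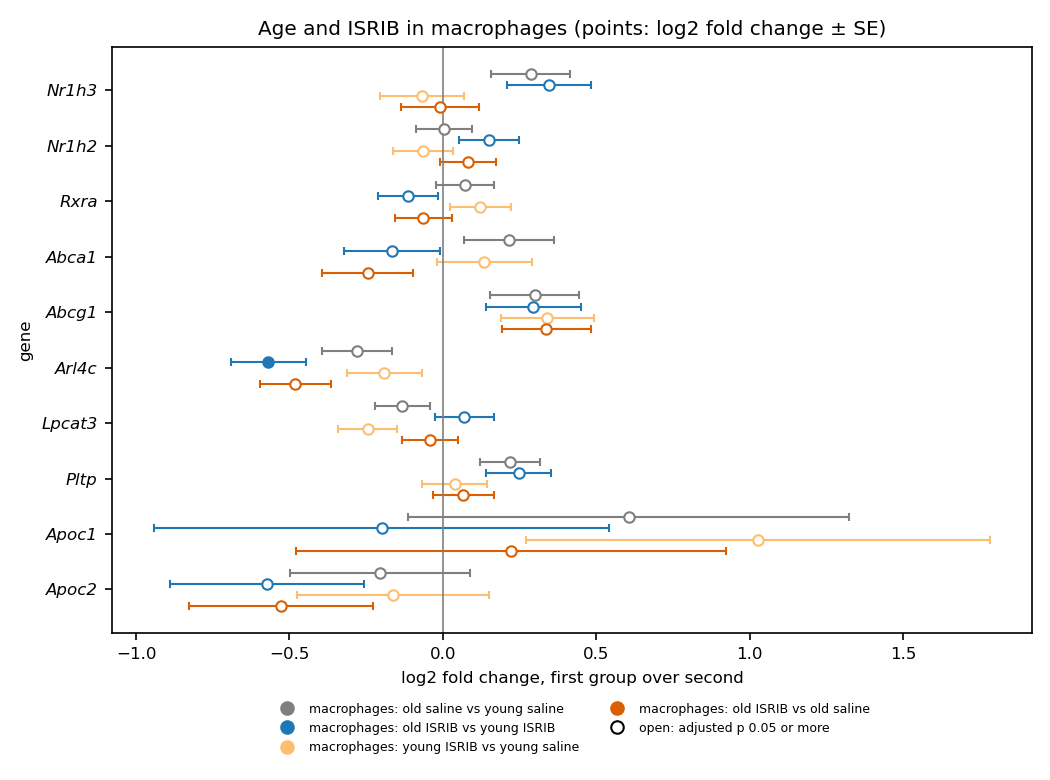
Log2 fold change in macrophages (x axis) for each of the 10 genes (y axis), old over young under each treatment and ISRIB over saline at each age, with standard errors; filled points have an adjusted p under 0.05. The 1 filled point is Arl4c in old against young ISRIB mice at -0.57.

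In the related gene lists, age averaged over treatments called 2 of 10 other LXR targets higher, where 4.86% of all genes were called, Scd1 (0.56 ± 0.16, adjusted p = 0.0420) and Elovl5 (0.33 ± 0.09, 0.0219). Apoe was at -0.29 (0.170). Of the 13 sterol genes, Ch25h (0.83 ± 0.20, 0.0163) and the fatty acid and oxidised lipid receptor Cd36 (0.67 ± 0.15, 0.00754) were higher and the lipoprotein receptor Scarb1 was at -0.36 ± 0.10 (0.0274). No partner or coregulator was called, by edgeR, and in saline mice alone no gene of the 3 lists was.

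ISRIB moved none of the 10 genes past the threshold in macrophages by edgeR. In old mice 0 were called (0 of all 12171 genes), with 2 at an unadjusted p under 0.05 (9.14% of all genes), 1 called by DESeq2 and 0 by limma voom. In young mice 0 were called (0 of all genes), again with 2 at an unadjusted p under 0.05 (12.4%), while DESeq2 and limma voom called 0 of the 10. Over all genes DESeq2 called 105 there, and leaving out 1 library gave 0 to 304 by edgeR, the 304 without young ISRIB library 3 and at most 1 otherwise. Averaged over both ages 0 were called (0.830% of all genes), with 3 at an unadjusted p under 0.05 (16.6%) and 1 called by DESeq2 and by limma voom.

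Arl4c and Abcg1 came nearest. Old ISRIB macrophages had a mean Arl4c of 71.5 ± 17.7 CPM against 98.4 ± 6.77 in old saline ones, with 1 ISRIB library (101 CPM) inside the saline range. The log2 fold change was -0.48 ± 0.12 (adjusted p = 0.157), and without that library the adjusted p was 0.00966. Averaged over ages it was -0.34 ± 0.08 (0.0510). That averaged value passed with DESeq2 (0.0130) and limma voom (0.0396), and without old ISRIB library 1 (0.00969), young ISRIB library 3 (0.0333), old saline library 3 (0.0401) or 5 (0.0277) or young saline library 5 (0.0484). Abcg1 was at 0.34 ± 0.15 in old and 0.34 ± 0.15 in young mice, and at 0.34 ± 0.11 averaged (0.09998). Its group means were 999.7 ± 138 (young saline), 1242 ± 253 (young ISRIB), 1199.8 ± 366 (old saline) and 1533 ± 201 CPM (old ISRIB), and the libraries of ISRIB and saline mice overlapped at both ages. Lpcat3 was at -0.25 ± 0.10 in young mice (0.284) and at -0.14 ± 0.07 averaged (0.270). No difference in the ISRIB effect between ages was called for the 10 genes by edgeR (0 of all genes called, 0 at an unadjusted p under 0.05 against 5.10% of all genes, 0 by DESeq2 or limma voom), and for Arl4c the difference was -0.29 ± 0.17.

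The age and ISRIB contrasts share groups: old ISRIB macrophages enter both, and they are the group in which Arl4c was lowest and Abcg1 highest. Averaged over ages, ISRIB called no other LXR target of 10 by edgeR, where 0.830% of all genes were called, 1 partner of 7, the corepressor Ncor1 (0.26 ± 0.06, adjusted p = 0.0429), and 2 sterol genes of 13, Cd36 (0.76 ± 0.15, 0.0179) and Nceh1 (0.28 ± 0.06, 0.0365).

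Markers of other cell states moved along with these values. The CPM of 8 markers of mature alveolar macrophages, all of them detected, summed to 2351 to 2482 in young saline macrophages, 2592 to 2728 in young ISRIB, 2502 to 2820 in old saline and 2804 to 3152 in old ISRIB ones. The sum is not weighted, so abundant markers count most in it, and the relations of single markers were not tested. Across the 19 macrophage libraries that sum was related to Arl4c with r = -0.86 (adjusted p = 5.0e-04 over 50 relations, from the smallest p that 100000 permutations can give) and rho = -0.80 (0.0025). Without the 2 libraries farthest from the median r was -0.86, and within groups it was -0.41. For Abcg1, r was 0.70 (0.0107) and rho 0.73 (0.00933), with 0.58 without the 2 farthest and 0.35 within groups. Apoc2 had r = -0.61 (0.0188) and rho = -0.61 (0.0406), with -0.35 and -0.37. The relations are thus weaker among libraries of one group. The permutations ran across groups, so their p-values also carry the differences between groups. The part of these cells in the age and ISRIB values was not tested.

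**Figure D5:**
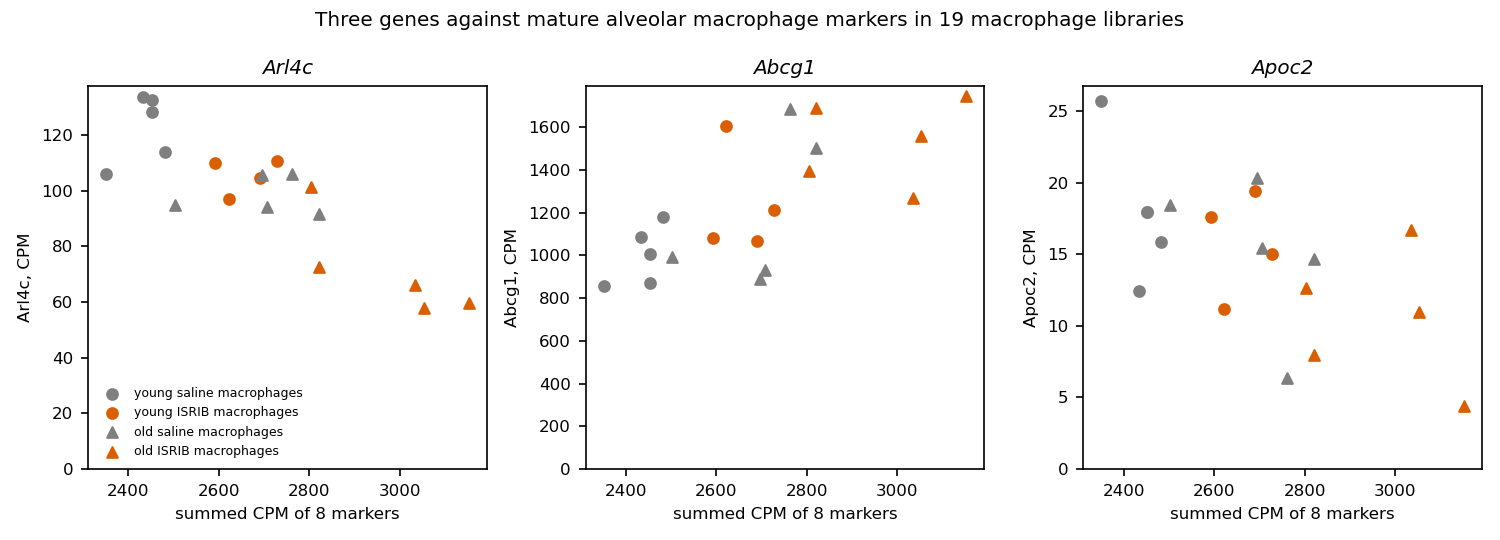
CPM of Arl4c, Abcg1 and Apoc2 (y axes) against the summed CPM of 8 mature alveolar macrophage markers (x axis) in the 19 macrophage libraries, with circles for young and triangles for old mice, grey for saline and orange for ISRIB. Old ISRIB libraries lie at 2804 to 3152 CPM, where 1 old saline library (2820 CPM) also falls, and their Arl4c is between 58.0 and 101 CPM; every library contributes its own total to both axes.

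Other lists moved too. The 5 classical monocyte markers summed to 309.96 to 536 CPM in young saline macrophages, 186 to 371 in young ISRIB, 121 to 246 in old saline and 101 to 210 in old ISRIB ones. The 6 nonclassical markers summed to 909 to 1029 CPM in young saline, 828 to 996 in young ISRIB, 828.8 to 958 in old saline and 736 to 895 in old ISRIB macrophages, so that the young saline and old ISRIB libraries did not overlap. The 5 B cell markers summed to 4.79 to 25.4 CPM in young saline, 7.62 to 18.6 in young ISRIB, 15.1 to 290.5 in old saline and 115 to 415 in old ISRIB macrophages. Arl4c itself was at 135 to 382 CPM in the monocytes. The part of these lists in the Arl4c values was not tested.

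Abcg1 and Apoc2 varied in opposite directions across the 19 macrophage libraries, with r = -0.84 over all of them and -0.79 within groups. This was the strongest relation among all pairs of the genes followed, in either cell type, so its size reflects that choice. In the 20 monocyte libraries the same pair was weaker, with r = -0.44 and -0.47 within groups. These relations between genes have no p-value. In young ISRIB, old saline and old ISRIB macrophages, the library with the most Abcg1 (1608, 1683 and 1749 CPM) had the least Apoc2 of its group (11.2, 6.39 and 4.37 CPM). In young saline macrophages the library with the most Abcg1, 1179 CPM, had 15.9 CPM of Apoc2, the second lowest of 5. A long-minus-short measure was followed as well, the mean log2 CPM of 3981 genes with over 5 kb of exon minus that of 112 genes with under 1 kb. It cannot tell the recovery of transcripts from their expression. In macrophages it was related to Abcg1 with r = 0.62 (adjusted p = 0.0180; rho = 0.61, 0.0406), 0.48 without the 2 farthest libraries and 0.59 within groups. For Lpcat3, r was -0.63 (0.0174) and rho -0.60 (0.0409), with -0.68 and -0.44. The measure itself averaged 0.17 ± 0.15 in young saline, 0.39 ± 0.09 in young ISRIB, 0.23 ± 0.12 in old saline and 0.31 ± 0.08 in old ISRIB macrophages. These means were higher under ISRIB at both ages, as were those of Abcg1, whose ISRIB differences edgeR did not call. The part of transcript length in the Abcg1 differences was not tested.

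In monocytes, neither age nor ISRIB moved any of the 10 genes past the threshold in the 7 contrasts, by edgeR, DESeq2 or limma voom. Age called 0.0247% of all genes in saline mice, 0 in ISRIB mice and 0.123% averaged, and the ISRIB contrasts called 0. An unadjusted p under 0.05 was reached by Lpcat3 alone, under ISRIB in old mice (7.54% of all genes) and averaged over ages (7.49%). None of the 10 reached it under ISRIB in young mice (6.65%), in the difference between ages (7.11%), or with age in saline mice (8.81%), in ISRIB mice (6.60%) or averaged (8.24%). Old ISRIB monocytes had 35.2, 35.3, 34.6, 32.4 and 30.3 CPM of Lpcat3 and old saline ones 52.8, 38.1, 37.8, 40.0 and 43.0. The groups did not overlap, for 1 of the 10 genes against 1.43% of all genes, but the log2 fold change of -0.29 ± 0.14 (unadjusted p = 0.0483) did not pass after adjustment. Averaged over ages it was -0.23 ± 0.10 (adjusted p = 0.637), the smallest adjusted p of the 10 genes in these contrasts.

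Among monocyte libraries Nr1h3, Pltp and Arl4c went with the nonclassical markers. For Nr1h3, r with the nonclassical sum was 0.71 (adjusted p = 0.00783) and rho 0.66 (0.0185), with 0.52 without the 2 farthest of 20 libraries and 0.72 within groups. For Pltp, r was 0.75 (0.005) and rho 0.66 (0.0185), with 0.63 and 0.81. For Arl4c, r was 0.62 (0.0174) but rho 0.46 (0.104), with 0.69 within groups. Without the 2 farthest libraries its r was 0.31, so that relation rests on those libraries. The classical sum ran the other way, with r of -0.62 for Nr1h3 (adjusted p 0.0174), -0.66 for Pltp (0.0102) and -0.62 for Arl4c (0.0174). On ranks none of them passed, with a rho of -0.54 and an adjusted p of 0.0571 for each. Without the 2 farthest libraries r was -0.40, -0.47 and -0.38, and within groups it was -0.65, -0.73 and -0.65. Apoc2 was related to the long-minus-short measure with r = -0.63 (0.0174) and rho = -0.81 (0.002), with -0.80 without the 2 farthest libraries and -0.58 within groups. Abcg1 went the other way with that measure, with r = 0.61 (0.0174) but rho = 0.54 (0.0571). Its r was 0.57 without the 2 farthest libraries and 0.74 within groups.

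Single libraries went with the marker relation or against it. Young saline monocyte library 5 had the highest classical sum of all, 9785 CPM, with 2558 CPM of nonclassical markers, and the lowest Arl4c (135 CPM), Pltp (17.9 CPM) and Nr1h3 (3.75 CPM) of its group. It is among the 2 libraries farthest from the median nonclassical sum. Old ISRIB monocyte library 5 had the lowest nonclassical sum of its group, 4100 CPM. It also had the lowest Nr1h3 (7.79 CPM) of that group, but the highest Arl4c (382 CPM) and Pltp (64.3 CPM). Young saline monocyte library 4 had the lowest Abcg1 (69.2 CPM) and Abca1 (17.6 CPM) of its group, and its long-minus-short measure was -0.34 where the other monocyte libraries had 0.22 to 0.72. It was also the smallest library of the study (4595331 counts), with a count for 12324 genes where the other monocyte libraries had 14956 to 16317. The young saline mean of 112 ± 26.3 CPM for Abcg1 includes that library.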

How the data were processed

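The deposited table holds whole-number read counts per Ensembl gene for 39 libraries, per the file headers, neither scaled nor filtered. The submitters' processing notes name bcl2fastq 2.19.1, FastQC, Trimmomatic 0.36, STAR 2.6.0, HTSeq 0.11.2 and the build mm10. The strand setting of the counting is not given in the sources used here. Genes were matched by ID to GENCODE vM21 (GRCm38), which gave a symbol to 42462 of 43430 IDs (97.8%), the coordinates, and the exon length behind CPM per kilobase. The 10 genes, the lists of related genes and the markers were chosen with earlier results of these data known. All 10 genes are named whatever their values, and of each related list up to 4 called genes with the largest change, besides Apoe, Mylip, Srebf1 and Pparg.

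CPM were counts divided by the library total. Tests used the quasi-likelihood test of edgeR 4.0.16 (R 4.3.3) with TMM scaling, filterByExpr (minimum count 10, minimum total 15) and Benjamini-Hochberg adjustment over all genes tested. Contrasts within a cell type used its 19 macrophage libraries (12171 genes) or 20 monocyte libraries (12170 genes), and contrasts across cell types all 39 (13587 genes). The model had 1 coefficient a group and nothing else. The scripts were first tested on simulated counts. Relations across libraries used 2-sided permutation tests with 100000 permutations on the log2 of CPM plus 1. Permutations ran over all libraries of a cell type regardless of group. Within-group values used deviations from group means and have no p-value. No libraries of a group were duplicates: over 76 pairs, chi-square per degree of freedom was 5.94 to 41.0. Same-numbered libraries had a median correlation of deviations of 0.0038 in macrophages and -0.014 in monocytes, and replicate numbers were not used as pairs in the main tests. Alternatives were other scalings, no filter, DESeq2 1.42.0, limma voom 3.58.1, a replicate block, 1 fit of all libraries, leaving out each library, another gene length and, chosen after seeing the data, library totals without TMM.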

Additional observations from a re-analysis of the deposited data

Results flagged for a closer look

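Of 80 sets of values, 1 for each gene in each group, 4 had a library set apart from the others of its group by the gap between them. Chance sets apart about 5% of such sets, so this number is near what chance gives. All 4 were monocyte libraries. Arl4c was at 135 CPM in young saline monocyte library 5, where the other libraries had 249.9 to 288 CPM. Nr1h3 was at 17.4 CPM in old saline monocyte library 1, where the others had 5.30 to 8.42 CPM, and that library had the highest sum of nonclassical markers in its group, 5555 CPM. Abcg1 was at 77.8 CPM in young ISRIB monocyte library 5, where the others had 112 to 118 CPM, and that library had the lowest long-minus-short measure of its group, 0.39. Lpcat3 was at 47.9 CPM in young ISRIB monocyte library 3, where the others had 27.8 to 28.7 CPM, and that library had 7269 CPM of nonclassical markers, as against 7215 CPM in library 4, where Lpcat3 was at 28.7 CPM. The part of these measures in the values was not tested.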

How the results depend on the processing

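No gene of the 10 that was called changed its direction under any alternative run. Between macrophages and monocytes, the 9 or 10 genes called kept that number in every alternative, and leaving out 1 library gave 9 to 10. With library totals and no TMM, the median of all genes was -0.13 in old saline and -0.11 in young ISRIB mice, against 0.00 and -0.01 with TMM. Within macrophages the calls near the threshold moved. For age averaged over treatments (1 gene), RLE gave 2, no filter 4, DESeq2 3 and all 39 libraries in 1 fit 0, and leaving out a library gave 1 to 4. The genes gained were Nr1h3 (without young saline library 1 or 5, old saline 2 or 5, or old ISRIB 1, adjusted p 0.0352 to 0.0491), Pltp (without young ISRIB 1 or 2 or old saline 2, 0.0335 to 0.0406) and Abcg1 (without young ISRIB 1 or old saline 2, 0.0397 and 0.0445). For age in ISRIB mice (1), all 39 in 1 fit gave 0 and leaving out a library 0 to 1. For ISRIB averaged over ages (0), upper-quartile scaling gave 1, no filter 2, DESeq2 1 and limma voom 1, and leaving out a library 0 to 2. The genes gained were Arl4c and, without young ISRIB 3, old saline 3 or old saline 5, Abcg1 (0.0280 to 0.0405). For ISRIB in old mice (0), no filter gave 1, DESeq2 1 and leaving out a library 0 to 1. The cause of these changes was not tested. A replicate block gave 2 genes, Arl4c (0.0281) and Abcg1 (0.0314), for ISRIB averaged over ages and changed no other call. Same-numbered libraries had a median correlation of deviations of 0.0038 in macrophages and -0.014 in monocytes, with highest values of 0.165 and 0.242. In macrophages 7 of 19 libraries correlated best with their own number, and in monocytes 2 of 20. These correlations over all genes cannot show whether same-numbered libraries share a batch. Counts over all genes also moved. For ISRIB averaged over ages they went from 101 to 640 with no filter, 440 with DESeq2, 169 with limma voom, 343 with the replicate block and 17 in 1 fit of all libraries. For age averaged they went from 592 to 975 with no filter, 819 with DESeq2, 494 with limma voom and 340 in 1 fit. For age in saline mice they went from 141 to 468 with no filter, 294 with DESeq2 and 60 in 1 fit. For age in ISRIB mice they went from 114 to 405, 260 and 50, in the same order. For ISRIB in young mice it went from 0 to 224 with no filter, 105 with DESeq2 and 10 with the block, and in old mice from 0 to 220 and 43. Leaving out 1 library gave 13 to 649 genes for ISRIB averaged, 0 to 304 for ISRIB in young mice, 0 to 30 in old mice, 47 to 289 for age in saline mice and 33 to 161 for age in ISRIB mice. In monocytes, age in saline mice went from 3 to at most 46 (DESeq2) and age averaged from 15 to at most 83 (DESeq2). Apoc1, with 0 to 35 counts in a macrophage library, is the gene that depth limits most.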
